A study of Mus musculus with 6 samples.

Results

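Twist1, Twist2, Zeb1, Zeb2, Snai1, Snai2 and Prrx1 are the transcription factors best known for driving the epithelial-mesenchymal transition, and they were followed here through cells sorted from mouse skin squamous cell carcinomas. The set is a list of gene symbols. All 7 symbols had a single row each among the 55481 rows of the expression table. Carcinomas came from skin treated with DMBA, a carcinogen, and TPA, a tumour promoter, and their cells were sorted before RNA was taken. One population had high Itga6, the integrin alpha 6 chain of hemidesmosomes, and carried CD80, a co-stimulatory ligand (Itga6hi CD80pos, 2 libraries); the submitters call it tumour stem-like. The other had low Itga6 and no CD80 (Itga6low CD80neg, 2 libraries), and the submitters call it differentiated cancer cells. Cells with high Itga6 and no CD80 were not analysed here. The labels name no mouse strain, age, sex or gate beyond these 2 markers, and do not tie replicates to animals; p-values here cover the spread among the 4 libraries alone, which may be technical. Both groups share the same tumour model and the same low-input polyA library kit.

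The epithelial-mesenchymal transition is the switch by which an epithelial cell gives up its junctions and takes on the shape and motility of a mesenchymal cell. SNAIL and ZEB factors are zinc finger repressors that bind E-boxes in junction genes such as Cdh1, TWIST factors are basic helix-loop-helix (bHLH) proteins that work as dimers with E-proteins, and Prrx1 is a homeodomain protein of mesenchyme. The same factors are part of the normal programme of fibroblasts, Zeb2 also works in myeloid cells and melanocytes, and Snai2 is made by basal keratinocytes. In bulk RNA, fewer cells of a type and less RNA per cell cannot be told apart.

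Values are TPM (levels set per transcript length and to the same sum in each library), which keep no record of depth, so the sequencing depth is unknown. On deposited TPM both sort markers were higher in Itga6hi CD80pos. Itga6 stood at 178 and 339 TPM there against 1.5 and 1.65 TPM in Itga6low CD80neg. Cd80 stood at 6.24 and 1.89 TPM versus 0.642 and 0.563 TPM. The Itga6low CD80neg libraries held much red cell RNA. Haemoglobin genes took 70.9% and 50.4% of their TPM, against 0.0185% and 0.00621% in Itga6hi CD80pos, and keratins took 0.517% and 1.53% against 8.39% and 7.5%. The median log2 fold change of the 13474 genes tested was 1.27 on deposited TPM and 0.16 with haemoglobin left out of the total. Differences are read here against that shift. Itga6 had a log2 fold change of 6.58, which is 5.31 above the median on deposited TPM. That of Cd80 was 1.51, only 0.24 above it, and 59.8% of tested genes had a lower one. On deposited TPM, limma called 7686 genes higher and 1277 lower in Itga6hi CD80pos (Benjamini-Hochberg adjusted p under 0.05). After median-of-ratios scaling, which moved the median to -0.01, it called 843 higher and 1830 lower.

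Of the 7 factors, 6 were lower in the Itga6hi CD80pos cells, and Snai2 alone was at a higher TPM there. Twist2, Zeb1, Zeb2, Snai1 and Prrx1 were under 1 TPM in both Itga6hi CD80pos libraries and above 1 TPM in both Itga6low CD80neg libraries. Snai2 was above 1 TPM in all 4 libraries, and Twist1 in 3 of them. In the epithelial libraries, therefore, 1 factor passed 1 TPM in replicate 1 and 2 did in replicate 2, while all 7 did in each Itga6low CD80neg library. The 7 together summed to 17.5 and 34.8 TPM in Itga6hi CD80pos and to 143 and 112 TPM in Itga6low CD80neg.

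By limma, 6 of 7 factors were called lower, where 9.48% of all tested genes were, and 1 was called higher, where 57.0% were. Tested genes had to reach 1 TPM in 2 or more libraries. Twist2, Zeb1, Zeb2, Snai1 and Prrx1 passed this filter only through the Itga6low CD80neg libraries and so had to differ, which means that the count of lower calls is a description and not support. For the 6 lower factors, both Itga6hi CD80pos libraries lay below both Itga6low CD80neg libraries, an order found in 12.9% of tested genes. For Snai2 both lay above, as in 73.5% of tested genes. With 2 libraries a group, the smallest p of an exact two-sided permutation test is 0.333, and no such p is given.

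**Figure D1:**
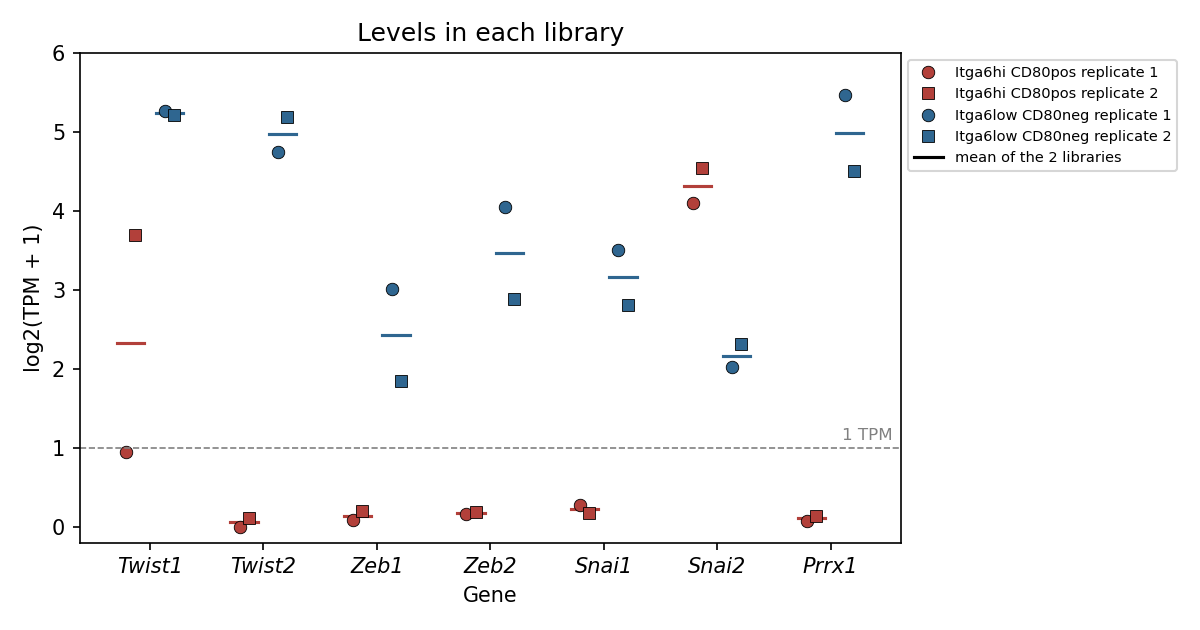
Level of each factor as log2(TPM + 1) in the 2 Itga6hi CD80pos libraries (red) and the 2 Itga6low CD80neg libraries (blue), with the mean of each pair as a bar and 1 TPM as a dashed line. Twist2, Zeb1, Zeb2, Snai1 and Prrx1 lie near 0 in both red libraries, Snai2 is higher in red, and Twist1 differs between the red libraries (0.922 and 12 TPM).

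Twist1 and Twist2, the bHLH factors, were both lower in the epithelial libraries, but only Twist1 kept a level above 1 TPM in one of them. Twist1 (ENSMUSG00000035799, chromosome 12, 33957671 to 33959829, plus strand of GRCm38, as for all positions here) had 0.922 and 12 TPM in Itga6hi CD80pos and 37.6 and 36.3 TPM in Itga6low CD80neg. The groups did not overlap, but one Itga6hi CD80pos library was far above the other. The log2 fold change was -2.92 ± 0.89 (SE, limma adjusted p = 0.0336), the widest error of the 7 factors. The call was lost without either Itga6low CD80neg library (adjusted p = 0.194 without replicate 1 and 0.185 without replicate 2), and without Itga6hi CD80pos replicate 1 the log2 fold change was -1.54 (adjusted p = 0.138).

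Twist2 (ENSMUSG00000007805, chromosome 1, 91801461 to 91848028, plus strand) was listed at 0 and stood at 0.0783 TPM in Itga6hi CD80pos, against 25.9 and 35.6 TPM in Itga6low CD80neg. Both epithelial libraries were close to nothing and both others were well above. Its log2 fold change of -4.92 ± 0.31 (SE, limma adjusted p = 0.0019) was the lowest of the set, and 0.928% of tested genes lay lower. Its antisense gene Gm29100 and the intronic Gm29101 were at 0.345 TPM or less in every library. The counting is not stated to use strand, so reads from a stretch that a gene shares with its antisense partner cannot be told apart.

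In Itga6hi CD80pos, Twist2 was thus 0 and 0.00651 of Twist1 within the same library, against 0.689 and 0.982 in Itga6low CD80neg. A ratio inside a library does not depend on how libraries are scaled.

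Zeb1 and Zeb2, the paired zinc finger repressors with a homeodomain, were near the bottom of the tested genes in the epithelial cells. There, 3.21% and 3.82% of tested genes lay below Zeb1 and 4.01% and 3.7% below Zeb2. Both passed the filter only through Itga6low CD80neg, so this low rank is a description. Zeb1 (ENSMUSG00000024238, chromosome 18, 5591860 to 5775467, plus strand) had 0.0654 and 0.144 TPM in Itga6hi CD80pos against 7.03 and 2.59 TPM in Itga6low CD80neg. The groups were apart, and the Itga6low CD80neg libraries differed from each other. Its log2 fold change of -2.28 ± 0.44 (SE, limma adjusted p = 0.0101) was the closest to 0 of the 6 lower factors at a pseudocount of 1, but not at 0.1, where Zeb1 was at -4.45 and Twist1 at -3.39. The antisense transcript Gm10125 lay at 0.142 and 0.0222 TPM versus 1.05 and 0.823 TPM. Its reads from the stretch that it shares with Zeb1 cannot be told apart from those of Zeb1.

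Zeb2 (ENSMUSG00000026872, chromosome 2, 44983632 to 45117395, minus strand) had 0.122 and 0.137 TPM versus 15.5 and 6.36 TPM. It was about as low as Zeb1 in the epithelial libraries and above Zeb1 in both others, where the Zeb1 to Zeb2 ratio was 0.453 and 0.408. The log2 fold change was -3.29 ± 0.44 (SE, limma adjusted p = 0.00575). Its antisense partner Zeb2os, which lies near the 5' end of the gene, was listed at 0 in both Itga6hi CD80pos libraries and stood at 0.85 and 0.61 TPM in Itga6low CD80neg.

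Snai1 and Snai2, the SNAIL repressors, went opposite ways on deposited TPM. Snai1 (ENSMUSG00000042821, chromosome 2, 167538195 to 167542814, plus strand) had 0.212 and 0.124 TPM in Itga6hi CD80pos against 10.4 and 5.99 TPM in Itga6low CD80neg. Both epithelial libraries were below both others, with a log2 fold change of -2.93 ± 0.34 (SE, limma adjusted p = 0.00468).

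Snai2 (ENSMUSG00000022676, chromosome 16, 14705852 to 14709385, plus strand), also called Slug, stood at 16.1 and 22.3 TPM in Itga6hi CD80pos against 3.05 and 3.99 TPM in Itga6low CD80neg. It was the most abundant of the 7 factors in the epithelial cells and among the 2 lowest in the other population. Its log2 fold change was 2.15 ± 0.32 (SE, limma adjusted p = 0.00653), which is 0.88 above the median of all genes, and 83.1% of tested genes had a lower one. The call was lost under all 4 other scalings, where the log2 fold change was 0.77 to 1.21 and the adjusted p 0.0547 to 0.149. It was also lost without either Itga6hi CD80pos library (adjusted p = 0.0799 without replicate 1 and 0.0803 without replicate 2).

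The ratio of the 2 SNAIL genes within a library can be read without any scaling. Its size in Itga6hi CD80pos rests on very low Snai1 levels (0.212 and 0.124 TPM). Snai2 was 76.2 and 179 times Snai1 in the Itga6hi CD80pos libraries and 0.294 and 0.666 times Snai1 in the Itga6low CD80neg libraries. Of this pair, Snai2 was nearly all the RNA in the epithelial cells, and Snai1 was the larger share in both libraries of the other population. The third SNAIL gene, Snai3, had 0.816 and 3.46 TPM in Itga6hi CD80pos. Against keratinocyte genes of the same library, chosen after their values were seen, Snai2 pointed the other way. Its ratio to Trp63, the master factor of basal keratinocytes, was 0.121 and 0.183 in Itga6hi CD80pos and 0.637 and 0.338 in Itga6low CD80neg. Its ratio to Krt5, the basal keratin, was 0.00105 and 0.0017 against 0.00995 and 0.0132.

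**Figure D2:**
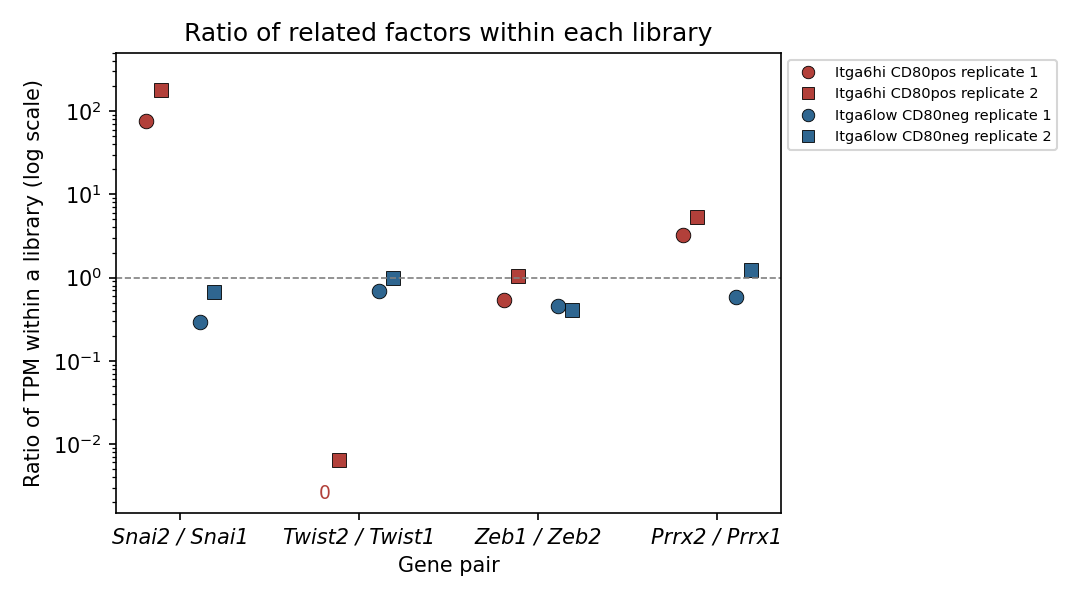
Ratio of the TPM of 2 related factors within each library, on a log axis, with Itga6hi CD80pos in red and Itga6low CD80neg in blue; a dashed line marks 1. Snai2 over Snai1 is 76.2 and 179 in red and below 1 in blue, and Twist2 over Twist1 is at or near 0 in red. Zeb1 and Zeb2 are at 0.144 TPM or less in the red libraries, so their red ratio rests on very low levels. Snai1 (0.212 and 0.124 TPM) and Prrx1 (0.0561 and 0.0964 TPM) are also very low there, so the size of the red ratios over them is uncertain.

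Prrx1 (ENSMUSG00000026586, chromosome 1, 163245119 to 163313710, minus strand), a homeodomain factor of limb and dermal mesenchyme, stood at 0.0561 and 0.0964 TPM in Itga6hi CD80pos against 43.4 and 21.7 TPM in Itga6low CD80neg. It was the highest of the 7 in Itga6low CD80neg replicate 1 and the third in replicate 2. The log2 fold change was -4.88 ± 0.40 (SE, limma adjusted p = 0.00296). Its paralogue Prrx2 had the same pattern, at 0.182 and 0.514 TPM versus 25.6 and 27.1 TPM (log2 fold change -4.35 ± 0.29 (SE), limma adjusted p = 0.00211). Prrx2 also passed the filter only through Itga6low CD80neg and so had to differ. The 3 genes overlapping Prrx1 in the annotation were at 0.244 TPM or less where the table lists them.

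TPM are per length, so levels can be ranked between genes. In Itga6low CD80neg replicate 1 the order was Prrx1, Twist1, Twist2, Zeb2, Snai1, Zeb1 and Snai2, and in replicate 2 it was Twist1, Twist2, Prrx1, Zeb2, Snai1, Snai2 and Zeb1. Twist1 was above Twist2 in both libraries, by little in replicate 2 (36.3 and 35.6 TPM), and the range of Prrx1 spanned both. The ranges of Zeb2, Snai1 and Zeb1 overlap, as do those of Zeb1 and Snai2. The first 3 lay above all others in both libraries. In Itga6hi CD80pos, Snai2 was first and Twist1 the second in both libraries, and the remaining 5 lay between a listed 0 and 0.212 TPM.

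Replicates of the Itga6hi CD80pos cells differed more in Twist1 than in most genes. The 2 libraries were 2.76 apart on the log2(TPM + 1) scale, where the median gap of tested genes was 0.22 and 0.468% had a larger one. The gaps of the other 6 factors ran from 0.02 (Zeb2) to 0.44 (Snai2). Some related genes, chosen after their values were seen, were also higher in replicate 2. Hmga2, a chromatin protein known to raise Snai1 and Twist1, stood at 2.07 and 49 TPM, and Snai3 was also higher in that library. The matrix gene Postn stood at 10.6 and 75.1 TPM, Sparc at 34.3 and 140 TPM, and the filament gene Vim at 6.66 and 21.4 TPM. Other mesenchymal genes were not higher there, such as Mmp2 (19.2 and 7.38 TPM), Col5a2 (1.87 and 0.75 TPM) and Acta2 (30.2 and 30.1 TPM). Nor was Snai1 (0.212 and 0.124 TPM). Fibroblast markers summed to 93.3 TPM in replicate 1 and 72.3 TPM in replicate 2, most of it Fbln1, and to 13.2 and 17.8 TPM without that gene; their part in the gap was not tested. With 1 library on each side, this gap has no replicate check.

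The Itga6low CD80neg libraries also differed in some factors. Zeb1 and Zeb2 were 1.16 and 1.17 apart, Prrx1 0.97 and Snai1 0.70, each higher in replicate 1, where the median gap of tested genes was 0.54. Fibroblast markers were higher in that library too, at a summed 10394 TPM versus 6392 TPM. Per 1000 TPM of those markers, Snai1 stood at 0.998 and 0.937 TPM, Prrx1 at 4.18 and 3.39 TPM, Zeb2 at 1.49 and 0.995 TPM and Zeb1 at 0.676 and 0.406 TPM. Twist1 (3.61 and 5.67 TPM) and Twist2 (2.49 and 5.57 TPM) were higher in replicate 2 on that measure.

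For each factor, the 2 tested genes with the most similar pattern were taken by Euclidean distance between centred log2(TPM + 1) profiles over the 4 libraries. These were Ifi204 and Maged2 for Twist1 (distances 0.351 and 0.419), Itm2a and Cd302 for Twist2 (0.198 and 0.202), and Mkx and Des for Zeb1 (0.0558 and 0.0682). Zeb2 was nearest to Slc4a1, a red cell anion exchanger, and Clip3 (0.06 and 0.119), and Snai1 to Trf and Lmo2 (0.0479 and 0.0956). Snai2 was nearest to Stk39 and Efna5 (0.0988 and 0.11), and Prrx1 to the complement gene Cfb and the collagen Col5a3 (0.21 and 0.214). With 4 libraries in 2 groups, these distances are a description.

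Fibroblast and melanocyte markers mostly moved with the 6 lower factors. Of 15 fibroblast markers, 14 were lower in Itga6hi CD80pos, where 9.48% of tested genes were. Of the 14, 8 passed the filter on low values only through Itga6low CD80neg and so had to differ. Fbln1 was not called (80.2 and 54.5 TPM versus 82.3 and 37.5 TPM). None of the 15 was listed at 0 in any library. Col3a1, a fibrillar collagen, stood at 2.22 and 2.56 TPM versus 2963 and 2123 TPM, and Col1a2 at 1.88 and 2.03 TPM versus 2108 and 1172 TPM. Melanocyte and Schwann cell markers (10 listed) had summed levels of 1.81 and 2.22 TPM versus 38 and 155 TPM. The 6 that were tested passed the filter only through Itga6low CD80neg, so their lower calls are a description. On deposited TPM 6 were called, and 4 after median-of-ratios scaling or quantile normalization, where 9.48%, 13.6% and 11.3% of tested genes were lower. Dct and Pmel, melanin genes, stood at 0.245 and 0.427 TPM versus 14.8 and 53.3 TPM, and at 0.565 and 0.742 TPM versus 6.44 and 38.3 TPM.

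Keratinocyte markers went the opposite way, at summed levels of 52936 and 53495 TPM versus 2402 and 7343 TPM, and 11 of 12 were called higher, where 57.0% of tested genes were. After median-of-ratios scaling 6 of 12 were higher, where 6.26% of tested genes were. Under the other scalings 5 to 7 were higher, where 7.72% to 13.5% of tested genes were. Krt14 stood at 26606 and 29432 TPM versus 1244 and 4000 TPM, and Krt5 at 15307 and 13058 TPM versus 307 and 301 TPM. Both Itga6low CD80neg libraries thus carry the defining markers of keratinocytes together with those of fibroblasts. Their part in the differences of the 7 factors was not tested.

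Markers of other lineages also differed in part. Among all tested genes, 9.48% were called lower and 57.0% higher, and the counts below stand beside these shares. Myeloid markers summed to 1077 and 745 TPM versus 595 and 2601 TPM, nearly all of it the alarmins S100a8 (460 and 330 TPM versus 219 and 990 TPM) and S100a9 (610 and 410 TPM versus 363 and 1588 TPM), which keratinocytes also make. Of 5 tested, 2 were lower, both of which passed the filter only through Itga6low CD80neg, and the pan-leukocyte gene Ptprc stood at 0.0659 and 0.04 TPM versus 1.06 and 2.69 TPM. T, NK and B cell markers summed to 0.701 and 0.413 TPM versus 3.36 and 7.93 TPM, with 1 tested, led by Trac at 2.01 TPM and Nkg7 at 1.58 TPM, and 6 or 7 of 12 were listed at 0 in Itga6hi CD80pos. Endothelial and pericyte markers summed to 37.5 and 32.2 TPM versus 28 and 18 TPM, with 2 of 6 tested higher and 2 lower. Of those called, Vwf passed the filter only through Itga6hi CD80pos and Kcnj8 only through Itga6low CD80neg, so both had to differ. The markers were led by Notch3 (29 and 16.8 TPM versus 4.8 and 1.39 TPM) and Rgs5 (0.522 and 1.2 TPM versus 6.38 and 8.63 TPM). The endothelial genes Pecam1, Vwf, Emcn, Cdh5, Tie1 and Kdr lay higher in both Itga6hi CD80pos libraries, an order found in 73.5% of tested genes, and Tek lay lower. Pecam1 stood at 2.34 and 5.84 TPM versus 0.253 and 2.03 TPM and was not called. The pericyte genes Rgs5, Kcnj8, Abcc9 and Cspg4 lay lower in both. Skeletal muscle markers summed to 6.25 and 11.3 TPM versus 100 and 47 TPM, with 3 of 4 tested lower, all 3 of which passed the filter only through Itga6low CD80neg, led by Acta1 and Tnnt3 at 40.2 and 23.4 TPM in Itga6low CD80neg replicate 1. Red cell markers, led by Hbb-bs and Hba-a2, summed to 185 and 62.5 TPM versus 711095 and 504900 TPM, and all 7 were lower, 3 of which passed the filter only through Itga6low CD80neg.

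**Figure D3:**
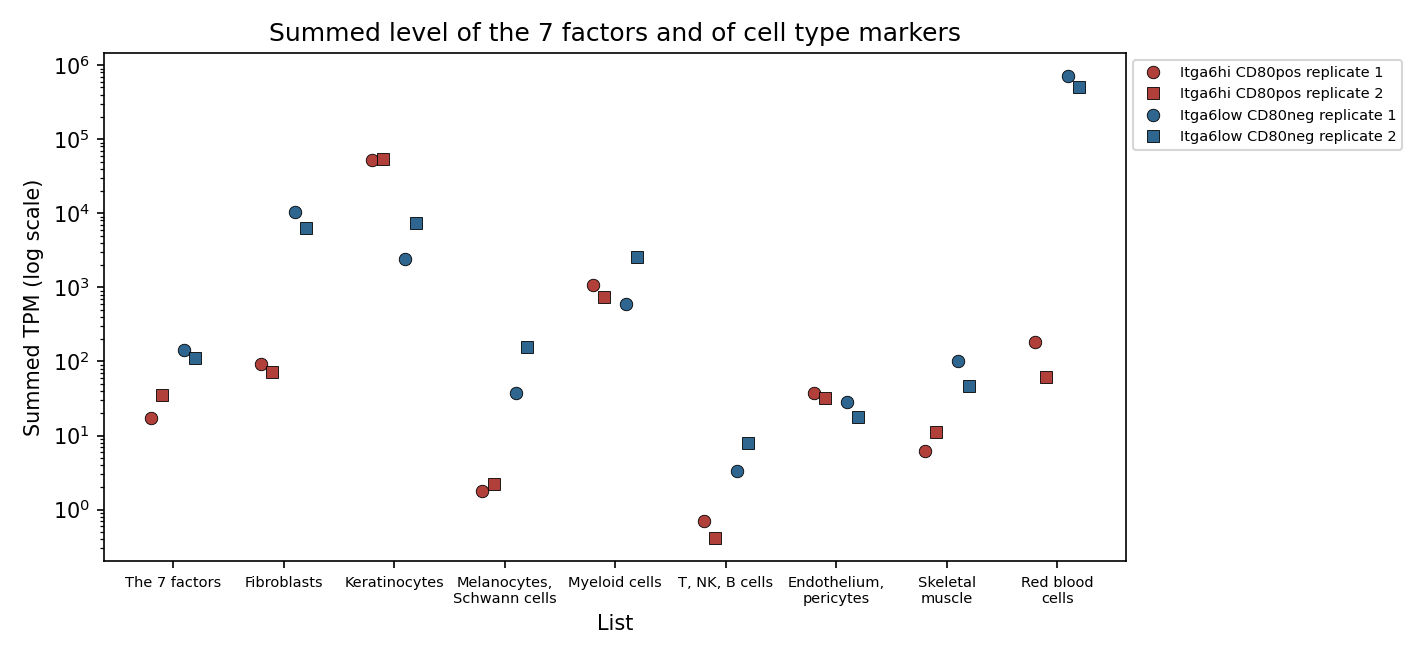
Summed TPM of the 7 factors and of each list of cell type markers in every library, on a log axis, with Itga6hi CD80pos in red and Itga6low CD80neg in blue. Fibroblast, melanocyte, muscle and red cell sums are higher in blue, and keratinocyte sums are higher in red.

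The scaling of the libraries did not turn the direction of any factor. On deposited TPM and under the 4 other scalings, all 6 lower factors stayed lower with a call. Twist2 ranged from -6.57 to -5.59 and Prrx1 from -6.52 to -5.54 on the log2 scale under the 4 others, all further from 0 than on deposited TPM. The adjusted p of Twist1 under those 4 was 0.0317 to 0.0439. After median-of-ratios scaling, where 13.6% of tested genes were lower and 6.26% higher, 6 of 7 factors were lower and 0 higher. The same counts of 6 and 0 came from quantile normalization (11.3% of tested genes lower and 10.7% higher), from leaving out haemoglobin genes (10.8% and 7.72%) and from also leaving out the mitochondrial, ribosomal protein and keratin genes (11.3% and 13.5%). The calls depended on single libraries: without Itga6hi CD80pos replicate 1, limma called 0 of 7 factors, with adjusted p from 0.0508 to 0.138, and 0 genes of the whole table. Without its replicate 2, it called 3 lower, Twist1, Twist2 and Prrx1.

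**Figure D4:**
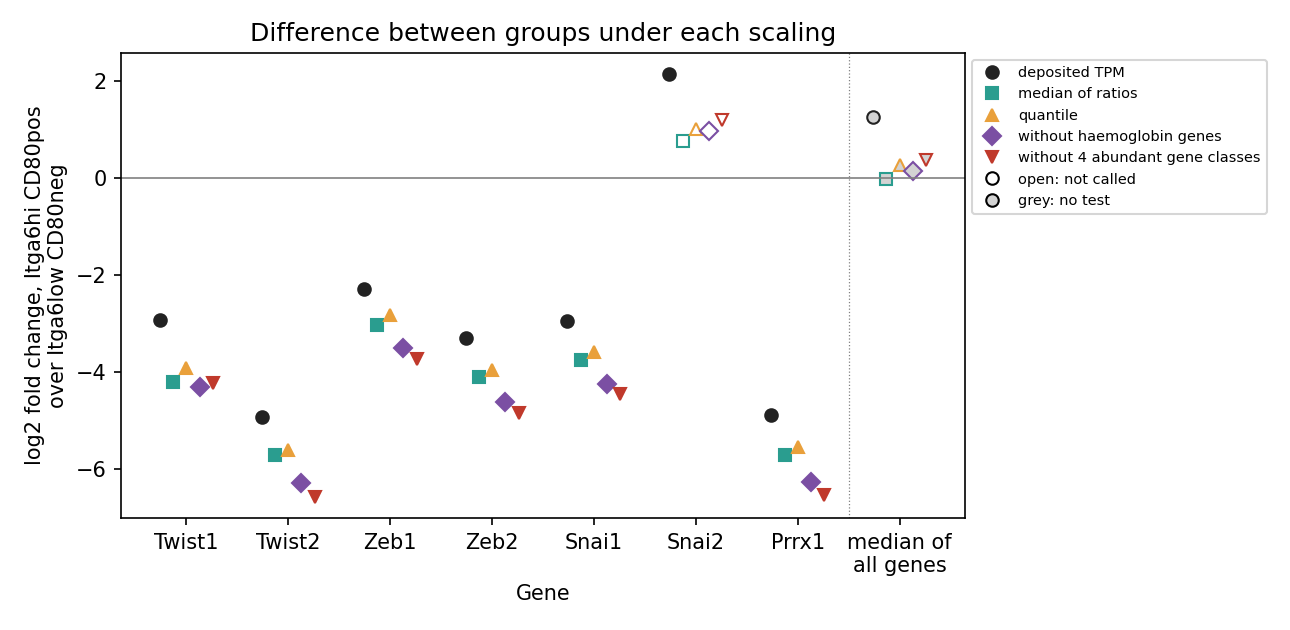
Log2 fold change of each factor, Itga6hi CD80pos over Itga6low CD80neg, on deposited TPM and under 4 other scalings; filled symbols passed limma at an adjusted p under 0.05, open ones did not, and grey ones give the median of all tested genes. All factors except Snai2 lie below 0 under all 5 scalings, and Snai2 is filled only on deposited TPM (2.15).

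Partners of the factors did not move as a block. TWIST proteins pair with the E-proteins, and Id proteins block that pairing. Of 7 such genes, 3 were higher and 1 lower, where 57.0% and 9.48% of tested genes were. Their median log2 fold change was 0.63 against 1.27 for all tested genes. Tcf3 (48.8 and 47.6 TPM versus 12.8 and 10.1 TPM) and Tcf12 (30.1 and 28.2 TPM versus 9.91 and 6.91 TPM), both E-proteins, were higher. Id1 was higher too, at 108 and 137 TPM versus 10.2 and 46.3 TPM, and the third E-protein, Tcf4, was lower, at 7.34 and 7.58 TPM versus 24.7 and 18.7 TPM. The other Id genes were not called. Id2 (9.6 and 5.86 TPM versus 14.2 and 18.4 TPM) and Id3 (44.8 and 74.6 TPM versus 107 and 111 TPM) lay lower in both Itga6hi CD80pos libraries, and Id4 overlapped. Under median-of-ratios scaling 0 of the 7 were higher and 3 lower, where 6.26% and 13.6% of tested genes were.

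Corepressors recruited by SNAIL and ZEB proteins were all measured well above 1 TPM in the epithelial cells. All 13 were called higher, as were 57.0% of tested genes, with a median of 2.06. Under median-of-ratios scaling 2 of 13 were higher, where 6.26% of tested genes were. Ajuba, a LIM protein that binds SNAIL, stood at 49.6 and 59.7 TPM versus 2.56 and 5.85 TPM, and Smarca4, a chromatin remodelling ATPase, at 58.4 and 57.4 TPM versus 7.32 and 4.51 TPM. Rcor1, the CoREST scaffold, stood at 19.5 and 17.6 TPM versus 2.89 and 1.87 TPM, and the histone methylase Suv39h1 at 17.3 and 13.8 TPM versus 1.7 and 2.11 TPM. Of 13 tested genes that act on the turnover of these proteins, 11 were higher, where 57.0% of tested genes were. Under median-of-ratios scaling 0 were higher, where 6.26% of tested genes were. Atm passed the filter only through Itga6hi CD80pos and so had to differ. The median of the 13 on deposited TPM was 1.64. Among them were the kinases Gsk3b (19 and 17.7 TPM versus 5.52 and 2.7 TPM), Pak1 (33.5 and 31.8 TPM versus 4.56 and 13.8 TPM) and Csnk2a1 (39.6 and 37.7 TPM versus 9.3 and 11.3 TPM), and the deubiquitinase Usp1 (33.9 and 23.6 TPM versus 3.79 and 4.76 TPM).

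Inducers of the transition went both ways, with 5 of 14 higher and 3 lower, where 57.0% and 9.48% of tested genes were. Their median was 0.83, against 1.27 for all tested genes. With median-of-ratios scaling 0 were higher and 4 lower, where 6.26% and 13.6% of tested genes were. Of the 14, Met passed the filter only through Itga6hi CD80pos and Hgf only through Itga6low CD80neg, so both had to differ. The higher call of Met and the lower call of Hgf are thus a description. Hmga2 also passed only through Itga6hi CD80pos and was not called. Hif1a, the hypoxia factor, stood at 256 and 231 TPM versus 16.3 and 43.9 TPM, and Met, the receptor of hepatocyte growth factor, at 4.69 and 17 TPM versus 0.552 and 0.2 TPM. Smad2, which carries TGF-beta signals, stood at 38.8 and 33.2 TPM versus 7 and 9.24 TPM. The cytokine Il6 was lower, at 0.913 and 2.72 TPM versus 99.9 and 115 TPM.

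Mesenchymal genes raised in the transition were lower along with the factors. Of 24 tested of 25, 21 were lower and 0 higher, where 9.48% and 57.0% of tested genes were. Their median log2 fold change was -4.92. With median-of-ratios scaling 22 were lower, where 13.6% of tested genes were. Of the 24, 4 passed the filter only through Itga6low CD80neg. This list shares Col1a1, Col1a2 and Col3a1 with the fibroblast markers, so it is not separate from them. Col1a1 stood at 2.47 and 2.92 TPM versus 2029 and 555 TPM, and Fstl1, a secreted glycoprotein, at 0.899 and 2.12 TPM versus 326 and 220 TPM. Among those that did not pass were the integrin chains Itgav (13.4 and 14.4 TPM versus 10.4 and 5.12 TPM) and Itgb1 (79.8 and 184 TPM versus 80.9 and 104 TPM).

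Of 27 other mesenchymal transcription factors 16 were tested. Among these, 11 were called lower and 3 higher, where 9.48% and 57.0% of tested genes were. All 11 lower ones passed the filter on low values only through Itga6low CD80neg and so had to differ, which makes this count a description. Tbx15 stood at 0.0449 and 0.0652 TPM versus 27.5 and 14.3 TPM, Osr1 was at 0.187 TPM and listed at 0 against 19 and 9.73 TPM, and Nfatc4 stood at 0.395 and 0.191 TPM versus 20.3 and 11.3 TPM. Osr2 was listed at 0 in both Itga6hi CD80pos libraries and stood at 17.8 and 7.32 TPM in the others. The 3 higher ones were Sox9, Foxc1 and Runx2. Foxc1 passed the filter only through Itga6hi CD80pos, so its call is a description. Sox9, a factor of hair follicle stem cells, stood at 12.9 and 23.3 TPM versus 2.11 and 1.14 TPM. Under median-of-ratios scaling 12 were lower and 0 higher, where 13.6% and 6.26% of tested genes were.

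Genes of the epithelial state were higher where the factors were lower. Of 15 epithelial-state regulators, 11 were higher and 0 lower, where 57.0% and 9.48% of tested genes were. Their median was 2.69, and 7 were higher under median-of-ratios scaling, where 6.26% of tested genes were. Of these regulators, Ovol2 passed the filter only through Itga6hi CD80pos and so had to differ. Klf5 stood at 140 and 128 TPM versus 4.98 and 10.2 TPM, and Trp63 at 133 and 122 TPM versus 4.79 and 11.8 TPM. Grhl2, which holds Zeb1 in check, stood at 23.7 and 20.6 TPM versus 1.11 and 1.67 TPM, and Esrp1, an epithelial splicing factor, at 90 and 78.9 TPM versus 4.83 and 8.94 TPM. Of 22 epithelial genes known as targets of repression by these factors, 16 were tested. Among these, 14 were higher and 0 lower, where 57.0% and 9.48% of tested genes were. Of the 16, 4 passed the filter only through Itga6hi CD80pos and so had to differ. Among those called, Ocln, Tjp3 and Marveld3 lay below the median of all tested genes. The median of the list was 2.61, and 6 were higher under median-of-ratios scaling, where 6.26% of tested genes were. Epcam stood at 56.1 and 96.2 TPM versus 2.18 and 5.67 TPM, and Cdh3, P-cadherin, at 47.2 and 55.6 TPM versus 2.03 and 3.96 TPM. Dsp and Jup, desmosome proteins, stood at 695 and 554 TPM versus 43.4 and 33.3 TPM, and at 840 and 851 TPM versus 56.9 and 90.3 TPM. Cdh1, E-cadherin, stood at 94.9 and 84 TPM versus 4.68 and 16.7 TPM. Keratinocyte markers as a whole moved in the same direction, and Cdh1, Epcam and Trp63 are also on that marker list.

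**Figure D5:**
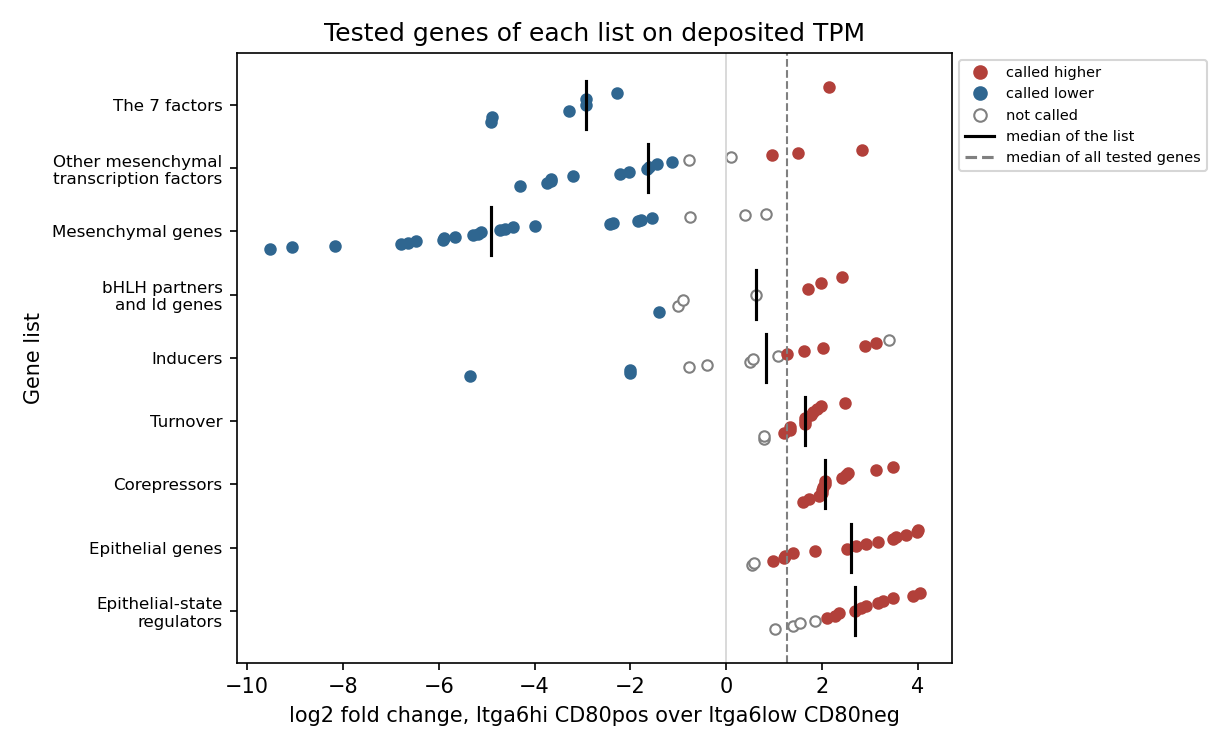
Log2 fold change on deposited TPM of each tested gene in the 7 factors and 8 related lists, with the median of each list as a bar and the median of all tested genes (1.27) as a dashed line. The mesenchymal lists lie mostly to the left of it and the epithelial lists mostly to the right.

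The motif that SNAIL and ZEB factors are known to bind is the E-box CAGGTG, read as CACCTG on the other strand. It was searched on both strands in the 250 bases before each gene start, in RefSeq promoters of GRCm38.p6. Of all 32851 promoter windows, 17.2% held it. Among the epithelial target genes, 15 of 22 matched the promoter table with 21 windows, and 12 windows of 10 genes held it (57.1%). Among the epithelial-state regulators 3 of 7 windows did (42.9%), and among 14 matched mesenchymal genes 0 of 16. Median GC content was 60.4% in the epithelial windows, 54.6% in the mesenchymal ones and 52.4% in all, so base composition differs too. A match is a description and not a bound site. The epithelial target genes were listed as known targets of repression by these factors, so their share is no independent test. Windows of the same gene can overlap, so a site can count more than once. The following are a selection from the E-box genes called higher in Itga6hi CD80pos, where Snai1, Zeb1 and Zeb2 were lower and Snai2 was higher in TPM. Rab25, Tjp3, Crb3 and Krt18 also held the E-box and were called higher, and their sites are not shown. Capitals mark the E-box, each on the strand of its gene.
Epcam, chr17:87635780-87635809, plus strand, 187 bases before the start: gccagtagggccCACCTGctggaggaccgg
Epcam, chr17:87635948-87635977, plus strand, 19 bases before the start: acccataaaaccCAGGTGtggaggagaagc
Patj, chr4:98395795-98395824, plus strand, 19 bases before the start: tggagagcggccCAGGTGaggaggcggccg
Grhl3, chr4:135573634-135573663, minus strand, 19 bases before the start: agttaacatctgCACCTGctgtggtctagc
Ocln, chr13:100552694-100552723, minus strand, 213 bases before the start: ccatcggagtttCAGGTGaatgggtcaccg
Ocln, chr13:100552549-100552578, minus strand, 68 bases before the start: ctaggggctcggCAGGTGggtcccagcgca

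Epcam is an adhesion protein and Ocln and Patj belong to tight junctions. Patj stood at 20.8 and 20.7 TPM versus 2.84 and 2.75 TPM and Ocln at 1.89 and 1.31 TPM versus 0.134 and 0.54 TPM. Ocln had a log2 fold change of 0.97, or -0.30 relative to the median of all genes, so its higher call did not exceed the general shift. It also passed the filter only through Itga6hi CD80pos. Grhl3, a barrier factor, stood at 24.3 and 33.8 TPM versus 3.01 and 8.31 TPM. Presence of the E-box did not sort calls from non-calls in full: Cldn4, a tight junction claudin, and Elf3, an epithelial ETS factor, hold one and did not pass (10.5 and 56.5 TPM versus 7.57 and 33.4 TPM, and 20.7 and 48.5 TPM versus 2.76 and 20.6 TPM). Muc1, Krt8 and Cldn7 also hold one and were too low to be tested. Of these, Cldn7 lay lower and Muc1 and Krt8 higher in both Itga6hi CD80pos libraries.

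Of the 7 factors, 5 matched the promoter table, with 8 windows, and Zeb1 and Snai2 did not. Snai1 alone held a CAGGTG E-box, 126 bases before its start, and SNAIL protein is known to act on its own promoter. The GC-box GGGCGG, searched on both strands, was found in Twist1, Twist2 and 3 of 4 Zeb2 windows, against 32.7% of all windows. Promoters of Snai1, Twist1 and Twist2 are shown because these 3 factors were lower together while their promoters differ in these motifs; capitals mark CAGGTG and GGGCGG on either strand, and overlapping or adjoining matches run together.
Snai1, chr2:167537945-167538194, plus strand: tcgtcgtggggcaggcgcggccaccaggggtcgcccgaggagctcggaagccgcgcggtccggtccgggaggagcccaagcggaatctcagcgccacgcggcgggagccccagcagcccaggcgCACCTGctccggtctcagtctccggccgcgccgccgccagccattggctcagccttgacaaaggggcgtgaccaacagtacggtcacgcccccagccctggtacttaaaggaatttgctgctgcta
Twist1, chr12:33957421-33957670, plus strand: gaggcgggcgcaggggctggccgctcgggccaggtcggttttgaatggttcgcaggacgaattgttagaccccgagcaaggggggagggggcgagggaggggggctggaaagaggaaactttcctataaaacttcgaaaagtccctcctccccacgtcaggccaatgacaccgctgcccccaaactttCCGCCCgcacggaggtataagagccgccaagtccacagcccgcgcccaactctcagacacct
Twist2, chr1:91801211-91801460, plus strand: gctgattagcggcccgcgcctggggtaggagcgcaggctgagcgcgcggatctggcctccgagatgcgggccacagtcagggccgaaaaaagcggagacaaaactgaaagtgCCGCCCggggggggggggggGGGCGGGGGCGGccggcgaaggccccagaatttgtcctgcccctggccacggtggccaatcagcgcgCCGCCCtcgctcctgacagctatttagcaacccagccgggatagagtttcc

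The Twist2 window held 4 GGGCGG matches and the Twist1 window 1, 62 bases before its start. Prrx1 held neither motif, in a window of 47.6% GC, against 70% for Snai1.

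Zeb1 and Zeb2 are also known as targets of the miR-200 family, small RNAs of epithelial cells, and of miR-205 of basal keratinocytes. Mature forms are shown because the family splits into 2 seeds (bases 2 to 8, in capitals), one shared by miR-200a and miR-141 and the other by miR-200b, miR-200c and miR-429.
mmu-miR-200a-3p: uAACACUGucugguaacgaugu
mmu-miR-141-3p: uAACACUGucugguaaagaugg
mmu-miR-200b-3p: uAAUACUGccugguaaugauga
mmu-miR-200c-3p: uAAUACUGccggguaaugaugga
mmu-miR-429-3p: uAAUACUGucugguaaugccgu
mmu-miR-205-5p: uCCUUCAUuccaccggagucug

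Matches to these seeds set the ZEB pair apart from the other factors by count. In the longest annotated 3' UTR (GENCODE M21), Zeb1 held 4 matches to the first seed (CAGTGTT) and 5 to the second (CAGTATT), on the strand of the mRNA, in 2401 bases, and Zeb2 held 4 and 5 in 4941 bases. Prrx1, with a UTR of similar length to that of Zeb2 (4891 bases), held 0, as did Twist1 (700 bases) and Twist2 (1885 bases). Snai1 held 1 in 731 bases and Snai2 held 2 in 1089 bases. Of 21007 genes with a 3' UTR, with a median length of 961 bases, 17.2% held the first and 13.3% the second. A miR-205 match (ATGAAGG) was found in Zeb1 (1) and in none of the other 6 factors, against 11.1% of genes. Examples from Zeb2 on the minus strand are shown with the match to the seed in capitals.
Zeb2, chr2:44988357-44988379, first seed: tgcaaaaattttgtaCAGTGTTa
Zeb2, chr2:44987825-44987847, first seed: agtgccatccttgtaCAGTGTTc
Zeb2, chr2:44988173-44988195, second seed: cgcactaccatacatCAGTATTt
Zeb2, chr2:44987746-44987768, second seed: ttgaagcacccgtgtCAGTATTa

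Mature miRNAs have no polyA tail and were not measured. The precursor genes Mir200a, Mir200b, Mir200c, Mir141, Mir429 and Mir205 were listed at 0 in all 4 libraries. The host transcript Mir205hg, chosen after its values were seen, stood at 4.11 and 4 TPM in Itga6hi CD80pos against 0.0835 and 0.521 TPM in Itga6low CD80neg (log2 fold change 1.98 ± 0.30 (SE), limma adjusted p = 0.00656), opposite in direction to Zeb1 and Zeb2. The median of all tested genes was 1.27 and 57.0% were called higher, so this is the direction of most genes. Mir205hg passed the filter only through Itga6hi CD80pos and so had to differ, which makes its call a description.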

How the data were processed

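PolyA RNA of sorted mouse skin carcinoma cells was sequenced by the submitters. Kallisto 0.44.0 and mm10 are named per the submitters' processing notes. The authors deposited 1 TPM value per gene and library; the annotation, the summing of transcripts and any filter are not given in the sources used here. Positions come from GENCODE M21 on GRCm38. Tested genes (13474) reached 1 TPM in 2 or more of the 4 libraries and were compared on log2(TPM + 1), with limma 3.58.1 in R 4.3.3 (eBayes with a trend, two-sided, Benjamini-Hochberg over all tested genes, adjusted p under 0.05, 2 residual and 3.33 prior degrees of freedom). Fold changes on this scale understate the change of low genes. The fit was tested on simulated data. Alternatives were pseudocounts of 0.1 and 5, no filter, a mean of at least 5 TPM, 4 scalings (median of ratios over 9608 genes, quantile, haemoglobin left out of the total, 4 abundant gene classes left out), no trend, a replicate block, and each library left out; the tested genes were kept the same except where the filter or a left-out class changed them.

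The 7 factors and all lists were chosen with earlier results of these data known. Named from each related list were up to 4 called genes by absolute log2 fold change, from each marker list the 2 with the highest TPM in any library, and for each factor its 2 nearest profiles; other genes named were chosen after their values were seen. Of related family members 1 of 2 tested was lower (Prrx2). The direction of each difference is Itga6hi CD80pos minus Itga6low CD80neg. Sequences come from RefSeq tables of GRCm38.p6 and from GENCODE M21 transcripts. The values of 1 listed gene are not reported here.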

Additional observations from a re-analysis of the deposited data

How the results depend on the processing

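On deposited TPM 6 of 7 factors were called lower and 1 higher. No alternative reversed a factor. The higher call (Snai2) became 0 under each of the 4 other scalings. Lower calls were 4 with no filter on low values (adjusted p = 0.13 for Twist1 and 0.0629 for Zeb1) and 4 with a mean of at least 5 TPM, which left Snai1 and Zeb1 untested, and 5 with a pseudocount of 0.1 (Twist1, adjusted p = 0.0516). Leaving out 1 library gave 0 to 5 lower and 0 to 1 higher; the lone library is then assumed to vary like the others.

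Over all genes, 7686 were higher and 1277 lower. Median-of-ratios scaling gave 843 and 1830, and quantile normalization 1448 and 1517. Leaving out haemoglobin gave 1040 and 1460. Dropping keratin, haemoglobin, mitochondrial and ribosomal protein genes gave 1797 and 1499. No filter gave 4564 and 852 of 30663 tested genes, and a mean of at least 5 TPM 6117 and 613 of 8821. The main fit tested 13474 genes, so these counts are not on the same set. Leaving out 1 library gave 0 to 8227 higher and 0 to 1237 lower. Without Itga6hi CD80pos replicate 1 limma called 0 of 7 factors and 0 genes, although 4442 genes higher and 1033 lower, and 1 and 5 factors, had an unadjusted p under 0.05. The causes were not tested.

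With the replicate number as a block, 6 factors were lower and 1 higher, with 8044 genes higher and 1452 lower. The labels do not say that numbers pair libraries, the correlation of same-numbered deviations was 0.109 over the 2 pairs, and the prior degrees of freedom were infinite, so each gene took the spread of the trend. TPM carry no depth, so no detection limit is given for factors near 0.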
